A study of Mus musculus with 34 samples.

Results

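Lyve1, Cd163, Mrc1, Folr2, Timd4, F13a1 and Cd5l are 7 genes that mark macrophages which live in tissues for long periods, many of them lying along blood vessels. They were chosen by name, with earlier results of these data known. All 7 were listed in both expression tables, which hold 32098 genes each. The RNA came from visceral white fat, from its stromal vascular fraction (SVF), the pellet that remains when collagenase-digested fat pads are spun and the adipocytes float away, here treated with a buffer that lyses red cells. It holds macrophages and other immune cells together with fibroblasts, endothelial and mesothelial cells. All mice were male C57BL/6J and received their diet from 6 weeks of age. It was either a control chow (CHOW) or a high fat diet with 60% of its energy from fat (HFD). On the final day all mice were fasted for 6 hours, and the labels give no other allele or treatment. There were 4 CHOW and 6 HFD libraries after 8 weeks of diet, 5 CHOW and 6 HFD libraries after 20 weeks, and 7 CHOW and 6 HFD libraries after 34 weeks. The labels number the replicates without saying whether each was a separate animal, so p-values measure the spread between these libraries.

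Resident macrophages of fat settle next to vessels, where they take up proteins, hemoglobin complexes, lipids and dying cells from their surroundings and help to maintain the tissue. During obesity, monocytes enter the fat and many become lipid-associated macrophages that gather around dying adipocytes in crown-like structures. Both kinds share general macrophage genes such as Csf1r, the receptor for the growth factor that keeps macrophages alive. LYVE1 binds hyaluronan, CD163 takes up hemoglobin bound to haptoglobin, and MRC1 (CD206) takes up mannose-bearing glycoproteins. FOLR2 binds folate, TIMD4 binds phosphatidylserine on dying cells, F13A1 is the transglutaminase subunit that crosslinks fibrin and matrix proteins, and CD5L (AIM) is a secreted scavenger receptor cysteine-rich protein.

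The promoters of 6 of the 7 genes were matched by symbol in a RefSeq table of build GRCm38.p6, and the 250 bases before each start were searched on both strands for short motifs. The windows that held the core motif GAGGAAG of PU.1 are shown because this factor opens macrophage enhancers and is known for its part in macrophage identity. In the lines below the bases run along the strand of the gene, and capitals mark the match or its reverse complement.
Mrc1, chr2:14229220-14229279, plus strand: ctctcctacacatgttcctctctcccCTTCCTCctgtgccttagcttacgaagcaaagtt
Mrc1, chr2:14229352-14229411, plus strand: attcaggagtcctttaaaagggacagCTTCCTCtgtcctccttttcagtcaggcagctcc
Cd5l, chr3:87357788-87357847, plus strand: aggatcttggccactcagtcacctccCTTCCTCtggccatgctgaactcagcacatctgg
F13a1, chr13:37050277-37050336, minus strand: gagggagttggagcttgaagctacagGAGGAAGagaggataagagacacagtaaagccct
The PU.1 core was found in 3 of 8 windows of these genes (Folr2 and F13a1 have 2 starts each) and in 10.6% of all 32851 windows. AP-1 (TGAGTCA) was found in 1 of the 8 windows, at Folr2, and in 4.46% of all. The STAT6 motif was found in 1 window, at Cd5l, and in 5.85% of all. The E-box CACGTG and the DR4 repeat were found in none of the 8, against 6.02% and 0.02% of all windows. No match overlapped another in these genes. A match is a description of the letters, and Lyve1 had no entry in the table. Of the genes with the PU.1 core, F13a1 passed the test for diet at 20 weeks in the values given next, while Mrc1 and Cd5l did not.

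Libraries of 1 group correlated with each other at an r of 0.846 to 0.973 in the 8 and 20 week table and of 0.821 to 0.973 at 34 weeks, across genes. Macrophage RNA was present in every library, with Csf1r between 146 and 538 TPM (transcripts per 1000000 transcripts, a length-corrected share of each library). Some libraries stood apart by RNA of other cells or tissues. HFD 8 week replicate 3 held 123060 TPM of seminal vesicle genes, HFD 20 week replicate 5 held 13111 TPM of germ cell genes, CHOW 20 week replicate 2 held 7724 TPM of lipid-associated macrophage genes, and the 10 adipocyte genes reached 70596 TPM among CHOW 34 week replicates 5 to 7. These 6 libraries were left out together in an alternative fit. HFD 34 week replicates 1 and 2 held 5279 and 5702 TPM of germ cell genes and stayed in that fit. HFD 8 week replicate 6 held 267896 TPM of red cell genes, and without it alone no call of the 7 changed. CHOW 8 week replicate 3 was kept in the alternative fit. It held 344 TPM of blood endothelial genes, against 1199 to 1861 TPM in the rest of its group. In bulk RNA, fewer cells of a type and less RNA per cell cannot be told apart.

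Folr2 was the most abundant of the 7 genes in 33 of 34 libraries and F13a1 in the other. The 7 genes separated at 20 weeks. Lyve1, Cd163, Timd4 and F13a1 were lower on HFD, by 2.9 to 5.2 times in mean TPM, and no HFD library overlapped a CHOW library, a separation with HFD lower that 3.69% of all genes showed. Mrc1, Folr2 and Cd5l did not pass the test. Among all genes tested 14.3% were called at 20 weeks, 0.0238% at 8 weeks and 0.243% at 34 weeks. At 8 weeks and at 34 weeks 0 of the 7 passed in limma, and at each of these times 2 had an unadjusted p under 0.05 (Cd163 and Timd4 at 8 weeks, Cd163 and Folr2 at 34 weeks). Of all genes 9.7% had one at 8 weeks and 13.2% at 34 weeks. The tests were made with limma on log2(TPM + 1) with Benjamini-Hochberg adjustment over all genes, and a gene was called when its adjusted p was under 0.05.

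**Figure D1:**
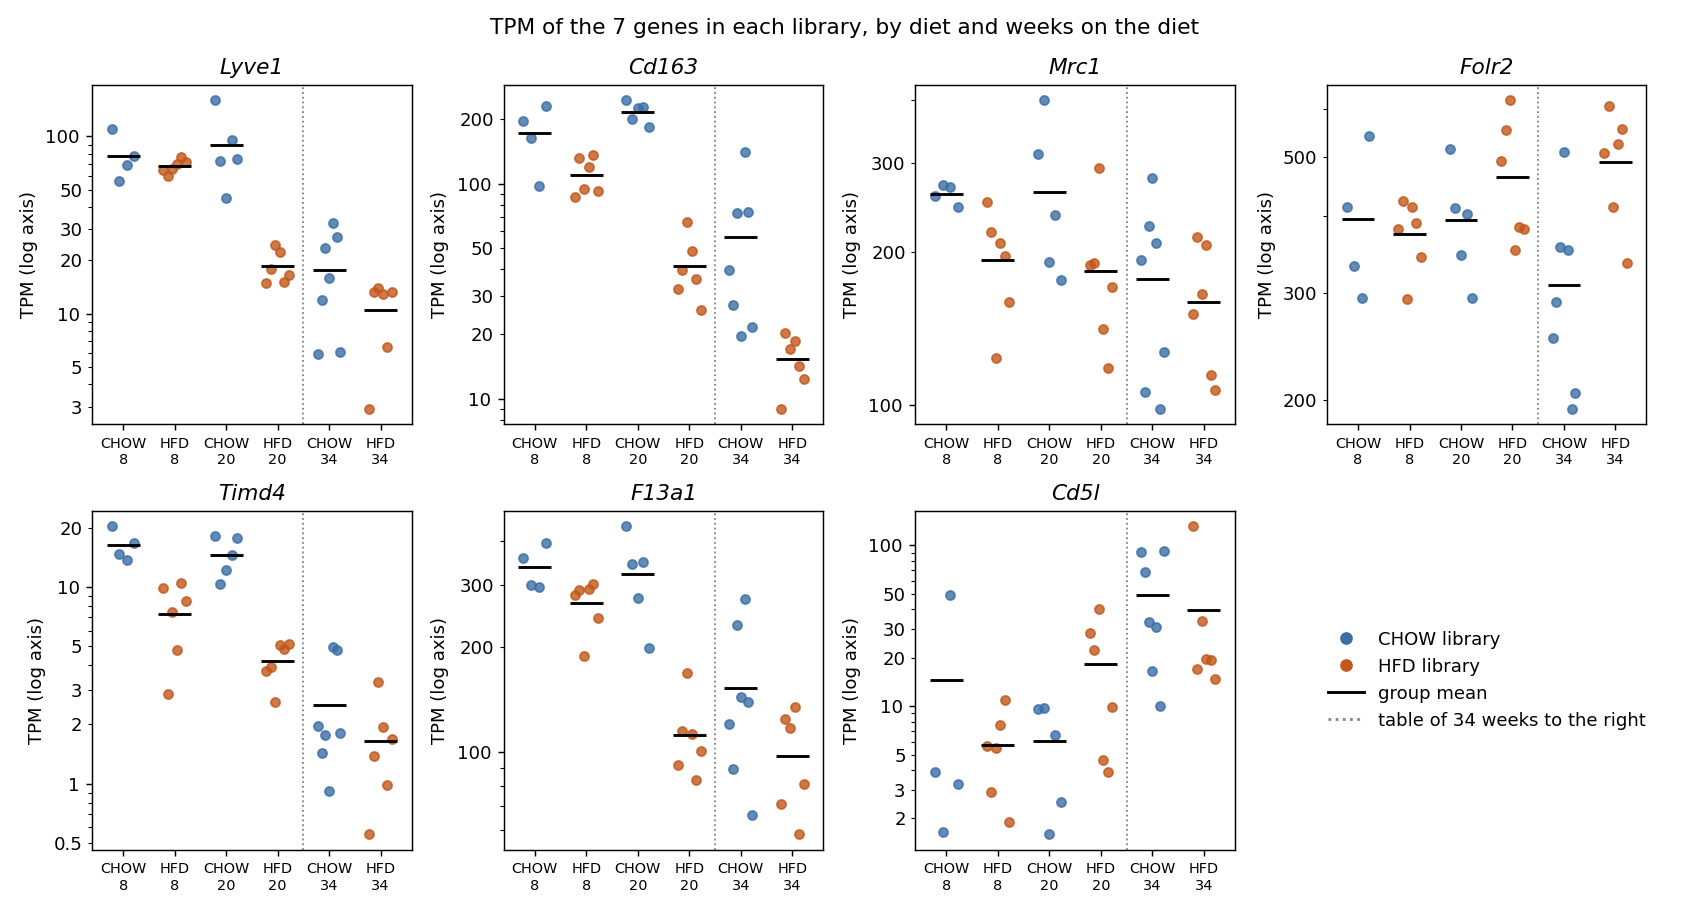
TPM (log axis, a different range in each panel) of the 7 genes in each of the 34 libraries, by diet and weeks on the diet. Blue points are CHOW libraries, orange points HFD libraries and bars group means, and the dotted line sets off the 34 week table, which was made apart. At 20 weeks the orange points lie below all blue points for Lyve1, Cd163, Timd4 and F13a1 and overlap them for Mrc1, Folr2 and Cd5l.

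Lyve1 (ENSMUSG00000030787.4, GRCm38 chromosome 7, 110850607 to 110863239, reverse strand, protein coding) encodes the hyaluronan receptor. After 20 weeks it stood at 45.3, 72.6, 74.5, 95.3 and 159.9 TPM in the CHOW libraries, and at 14.9 TPM at the lowest, 17.2 at the median and 24.5 at the highest in the HFD libraries. All 6 HFD libraries lay below the lowest CHOW library. The mean fell from 89.5 ± 43.2 (SD, n = 5) to 18.5 ± 4.02 TPM (n = 6), with a log2 fold change and SE of -2.12 ± 0.23 (adjusted p = 1.14e-05). At 8 weeks the 4 CHOW libraries were at 55.9, 68.6, 77.2 and 110.5 TPM and the HFD libraries at 59.8, 67.9 and 76.3 TPM (lowest, median, highest). The HFD values lay inside the CHOW range, and the log2 fold change was -0.15 with a 95% interval of -0.66 to 0.35 (adjusted p = 0.914). At 34 weeks CHOW libraries ran from 5.94 to 32.4 TPM with a median of 15.98, and HFD libraries from 2.92 to 13.9 with a median of 13.1. The groups overlapped, and the log2 fold change was -0.61 ± 0.43 (adjusted p = 0.540). In the order of group means, CHOW 20, CHOW 8 and HFD 8 weeks came first and overlapped each other, and HFD 20 weeks was separated from them. CHOW 34 and HFD 34 weeks followed at means of 17.6 and 10.4 TPM, in a table made apart.

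Lymphatic endothelial cells also make LYVE1. Of 8 lymphatic genes, 5 could be tested at 20 weeks, and 1 of them, Sema3d (log2 fold change -0.78), passed (2 with either other scaling). An unadjusted p under 0.05 was found for 4 of the 5, against 30.5% of all genes, and their median log2 fold change was -0.41, in the direction of Lyve1. Their summed level was 428 to 521 TPM in CHOW and 219 to 465.9 TPM in HFD libraries. Prox1, which defines lymphatic endothelium, was at 0.30 to 0.45 TPM in the CHOW libraries of 20 weeks and at 0.21 to 1.45 TPM in the HFD libraries, near 0 in both groups. Flt4, the VEGFR3 receptor, was at 5.12 ± 0.61 TPM in CHOW (SD, n = 5) and 5.38 ± 1.79 TPM in HFD (n = 6). The part of lymphatic RNA in the Lyve1 result was not tested.

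Cd163 (ENSMUSG00000008845.9, chromosome 6, 124304656 to 124330527, forward strand) encodes the hemoglobin scavenger receptor. At 20 weeks CHOW libraries were at 183, 200.3, 225, 227 and 244 TPM, and the HFD libraries at 26.0, 37.9 and 66.2 TPM (lowest, median, highest). The highest HFD library was below all CHOW libraries by a wide gap. The mean was 216 ± 24.1 on CHOW and 41.5 ± 14.2 TPM on HFD (SD, n = 5 and 6), with a log2 fold change of -2.41 ± 0.22 (adjusted p = 1.14e-06), the lowest of the 7 genes and the 44th lowest of the 16808 genes tested. At 8 weeks CHOW libraries were at 97.5, 163, 196 and 230.5 TPM and HFD libraries at 86.8, 107 and 137 TPM. The CHOW library at 97.5 TPM, replicate 3, fell among the HFD values, and the log2 fold change of -0.59 ± 0.23 did not pass (adjusted p = 0.407). Without replicate 3 the groups did not overlap. The log2 fold change was then -0.83, the lowest of the fits without 1 library, none of which passed. At 34 weeks the spread on CHOW was large, from 19.6 through a median of 39.7 to 140.3 TPM, while HFD libraries stayed between 9.003 and 20.3 TPM with a median of 15.6. Of the 6 HFD libraries, 5 lay below all 7 CHOW libraries, and the log2 fold change of -1.54 ± 0.41 did not pass (adjusted p = 0.149). With limma's sample quality weights, which give less weight to libraries that vary more, it passed (-1.44, adjusted p = 0.0360). Of the 3 CHOW libraries of 34 weeks with the highest Cd163, replicates 5 and 6 were among those rich in adipocyte RNA. Without replicates 5 to 7 the log2 fold change was -1.21 (adjusted p = 0.268), and with an adipocyte covariate it was -0.97 (adjusted p = 0.573). Among 12 other genes of hemoglobin and heme handling, 5 were higher and 2 lower on HFD at 20 weeks. Blvra (biliverdin reductase, log2 fold change 1.26) and Slc48a1 (a heme transporter, 0.85) led those higher, and Hp (haptoglobin, -1.82) and Hmox1 (heme oxygenase, -1.16) were the ones lower.

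Mrc1 (ENSMUSG00000026712.3, chromosome 2, 14229392 to 14332057, forward strand) encodes the mannose receptor. In CHOW libraries of 20 weeks it was at 176, 191, 237, 313 and 399 TPM and in HFD libraries at 119, 179.9 and 294 TPM (lowest, median, highest). The groups overlapped, with 3 HFD libraries under all CHOW libraries, and the log2 fold change was -0.51 ± 0.23 with a 95% interval of -0.98 to -0.04 (adjusted p = 0.133). With median-ratio scaling of the TPM values it passed (-0.57, adjusted p = 0.0363). At 8 weeks the CHOW libraries stood close together at 246, 258, 269.7 and 271 TPM, and HFD libraries ran from 124 through 203 to 252 TPM. Of the 6 HFD libraries 5 were below all CHOW libraries, and the lowest was the one with seminal vesicle RNA. The log2 fold change was -0.47 ± 0.24 (adjusted p = 0.552). At 34 weeks the groups overlapped throughout, with 98.3, 193 and 281 TPM on CHOW, 107, 158 and 215 TPM on HFD and a log2 fold change of -0.10 ± 0.26 (adjusted p = 0.883). Group means ran from 263 TPM on CHOW at 20 weeks to 159.9 TPM on HFD at 34 weeks, and each neighbour in that order overlapped the next. Of 8 other mannose receptor family and lectin genes, 2 were higher at 20 weeks, Clec7a (dectin-1, 1.45) and Mrc2 (the collagen receptor Endo180, 1.14), and 1 was lower, Ly75 (DEC-205, -0.50).

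Folr2 (ENSMUSG00000032725.10, chromosome 7, 101839988 to 101857194, reverse strand) encodes the folate receptor beta. At 20 weeks CHOW libraries were at 294, 346, 404, 414 and 516 TPM and the HFD libraries at 352, 438 and 619.8 TPM. The groups overlapped, and the log2 fold change was 0.23 ± 0.18 with a 95% interval of -0.15 to 0.60 (adjusted p = 0.424). That interval does not reach the fold changes of Lyve1, Cd163, Timd4 or F13a1. At 8 weeks CHOW libraries were at 295, 332, 415 and 542 TPM and HFD libraries at 293, 386 and 424 TPM, with a log2 fold change of -0.05 ± 0.19 (adjusted p = 0.983). At 34 weeks the HFD libraries were at 336, 517 and 608 TPM and the CHOW libraries at 194, 289 and 509 TPM. Of the 6 HFD libraries 3 were above all CHOW libraries, and the log2 fold change of 0.72 ± 0.22 did not pass (adjusted p = 0.214). Folr2 was the only 1 of the 7 whose 2 highest group means were both on HFD, 491 ± 99.2 TPM at 34 and 464 ± 109 TPM at 20 weeks (SD, n = 6 each), and each neighbour in the order of means overlapped the next. Of 13 other folate genes, 3 were higher at 20 weeks, among them Slc46a3 (1.63) and Slc46a1 (the proton-coupled folate transporter, 0.94), and 0 were lower (1 with either other scaling).

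Timd4 (ENSMUSG00000055546.6, chromosome 11, 46810800 to 46844332, forward strand) encodes the phosphatidylserine receptor and had, with Cd5l, the lowest levels of the 7 on average over the groups of 8 and 20 weeks. After 20 weeks CHOW libraries were at 10.3, 12.1, 14.5, 17.6 and 18.1 TPM and the HFD libraries at 2.61, 4.38 and 5.10 TPM. No library overlapped, and the mean fell from 14.6 ± 3.39 to 4.21 ± 0.98 TPM (SD, n = 5 and 6), a log2 fold change of -1.57 ± 0.24 (adjusted p = 0.000281). At 8 weeks the CHOW libraries were at 13.6, 14.7, 16.6 and 20.4 TPM and the HFD libraries at 2.87, 7.96 and 10.5 TPM. Here too all 6 HFD libraries lay below the lowest CHOW library. In this comparison Timd4 was the only 1 of the 7 genes with separated groups, where 1.77% of all genes were separated with HFD lower. Cd163 overlapped there through 1 CHOW library alone, replicate 3. The log2 fold change of Timd4, -1.14 ± 0.26, did not pass (adjusted p = 0.121), at a time when 0.0238% of all genes were called. With sample quality weights it passed (-1.25, adjusted p = 0.0155), in a setting that called 209 of 16808 genes, against 4 in the main fit. Leaving out HFD replicate 2, the lowest, gave -0.94 (adjusted p = 0.194). At 34 weeks Timd4 was at 0.92, 1.81 and 4.94 TPM on CHOW and 0.55, 1.54 and 3.29 TPM on HFD, levels near 1 TPM at which a fold change of TPM + 1 is compressed, and the log2 fold change was -0.37 ± 0.30 (adjusted p = 0.597). Of 16 other genes for the clearance of dying cells, 14 were tested, and at 20 weeks 7 were higher and 1 lower. Stab2 (a scavenger receptor that binds phosphatidylserine and hyaluronan, 1.90) and Mfge8 (a bridge between phosphatidylserine and integrins, 1.32) rose furthest, and Cd300lf (a phosphatidylserine receptor, -1.85) fell.

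Timd4 was set beside adipocyte and macrophage RNA across libraries. Over the 21 libraries of 8 and 20 weeks the gene most like it was Cfd (adipsin, made by adipocytes; Pearson r of log2 values 0.94), and within groups its r with the mean of 10 adipocyte genes was 0.55 at 8 and 20 weeks (21 libraries) and 0.73 at 34 weeks (13 libraries). Its within-group r with the mean of the 14 lipid-associated macrophage genes was larger in size, -0.69 and -0.77. Cfd was at 157 to 472 TPM in the CHOW libraries of 20 weeks and at 6.87 to 16.8 TPM in the HFD libraries. With the adipocyte mean as a covariate, Timd4 at 20 weeks did not pass (log2 fold change -0.83, adjusted p = 0.236), while Lyve1 (adjusted p = 0.0428), Cd163 (0.0257) and F13a1 (0.0428) did. With that covariate 26 of all 16808 genes were called, against 2405 in the main fit, so most called genes did not pass with it. Diet and adipocyte RNA cannot be told apart fully, since the adipocyte mean was 5.98 to 6.82 in the CHOW and 5.03 to 5.68 in the HFD libraries of 20 weeks on the log2 scale, with no overlap.

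F13a1 (ENSMUSG00000039109.15, chromosome 13, 36867178 to 37050244, reverse strand) encodes the A subunit of coagulation factor XIII. At 20 weeks CHOW libraries were at 198, 275, 346, 349.6 and 442 TPM and the HFD libraries at 83.2, 106 and 168 TPM. The highest HFD library was under the lowest CHOW library, and the mean fell from 322 ± 91.5 to 112 ± 30.1 TPM (SD, n = 5 and 6), a log2 fold change of -1.51 ± 0.19 (adjusted p = 5.89e-05). At 8 weeks the CHOW libraries were at 297, 299.5, 359.7 and 395 TPM and the HFD libraries at 189, 286 and 302 TPM. Of the HFD libraries 5 lay below the CHOW range, at 189 to 293 TPM, and the log2 fold change was -0.35 ± 0.21 (adjusted p = 0.605). At 34 weeks CHOW libraries were at 66.1, 139 and 275 TPM and HFD libraries at 58.2, 99.3 and 134 TPM, overlapping, with a log2 fold change of -0.55 ± 0.31 (adjusted p = 0.455). Platelets also carry F13A1. Of 9 platelet genes 7 were tested at 20 weeks and 1 was lower, Tubb1 (-0.94), with sums of 16.6 to 22.7 TPM on CHOW and 16.3 to 22.1 TPM on HFD, and their part in the F13a1 result was not tested. Of 13 transglutaminase and fibrin genes 6 were tested and 1 was lower, Tgm1 (a keratinocyte transglutaminase, -1.24). F13b, the partner subunit made in liver, and the fibrinogen genes Fga, Fgb and Fgg did not exceed 0.53 TPM in any library.

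Cd5l (ENSMUSG00000015854.7, chromosome 3, 87357881 to 87371073, forward strand) had the highest coefficient of variation of the 7 in 5 of 6 groups, 57.1% to 159.7% over all groups, with CHOW at 34 weeks as the exception, where Cd163 was higher (76.8%). At 20 weeks it was at 1.59, 2.54, 6.65, 9.64 and 9.80 TPM on CHOW and at 3.89, 16.1 and 40.5 TPM on HFD. Of the 6 HFD libraries 4 were above all CHOW libraries, and the log2 fold change of 1.24 ± 0.68 did not pass (adjusted p = 0.223). With sample quality weights it did (1.74, adjusted p = 0.0234), in a setting that called 5092 of 16808 genes, against 2405 in the main fit. With the adipocyte covariate its sign turned (-0.63). At 8 weeks 3 CHOW libraries were at 1.65, 3.25 and 3.88 TPM and replicate 3 was at 49.1 TPM, while HFD libraries were at 1.90, 5.54 and 10.99 TPM. The log2 fold change was -0.25 with an interval of -1.75 to 1.24 (adjusted p = 0.968). At 34 weeks the level was at 9.95, 33.5 and 91.8 TPM on CHOW and at 14.9, 19.5 and 132 TPM on HFD, and the log2 fold change was -0.42 ± 0.58 (adjusted p = 0.756). In the order of group means both 34 week groups came first, unlike the other 6 genes, but that order was set across tables made apart. Among 13 scavenger receptor and AIM partner genes at 20 weeks, Nr1h3 (the oxysterol receptor LXR alpha, 1.01) was higher and Spic (-1.80) and Fasn (fatty acid synthase, -0.66) were lower.

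At 20 weeks 4 of the 7 genes were called, all lower, where 14.3% of all 16808 genes were called and 4.99% were called lower. The median log2 fold change of the 7 was -1.51 and that of all genes 0.08. Without the libraries that stood apart, and in each fit that left out 1 of the 11 libraries, the same 4 genes were called. At 8 weeks the median of the 7 was -0.35 against -0.08 for all genes. At 34 weeks it was -0.42 against 0.10, and 0.243% of 13982 genes were called, every one higher on HFD.

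**Figure D2:**
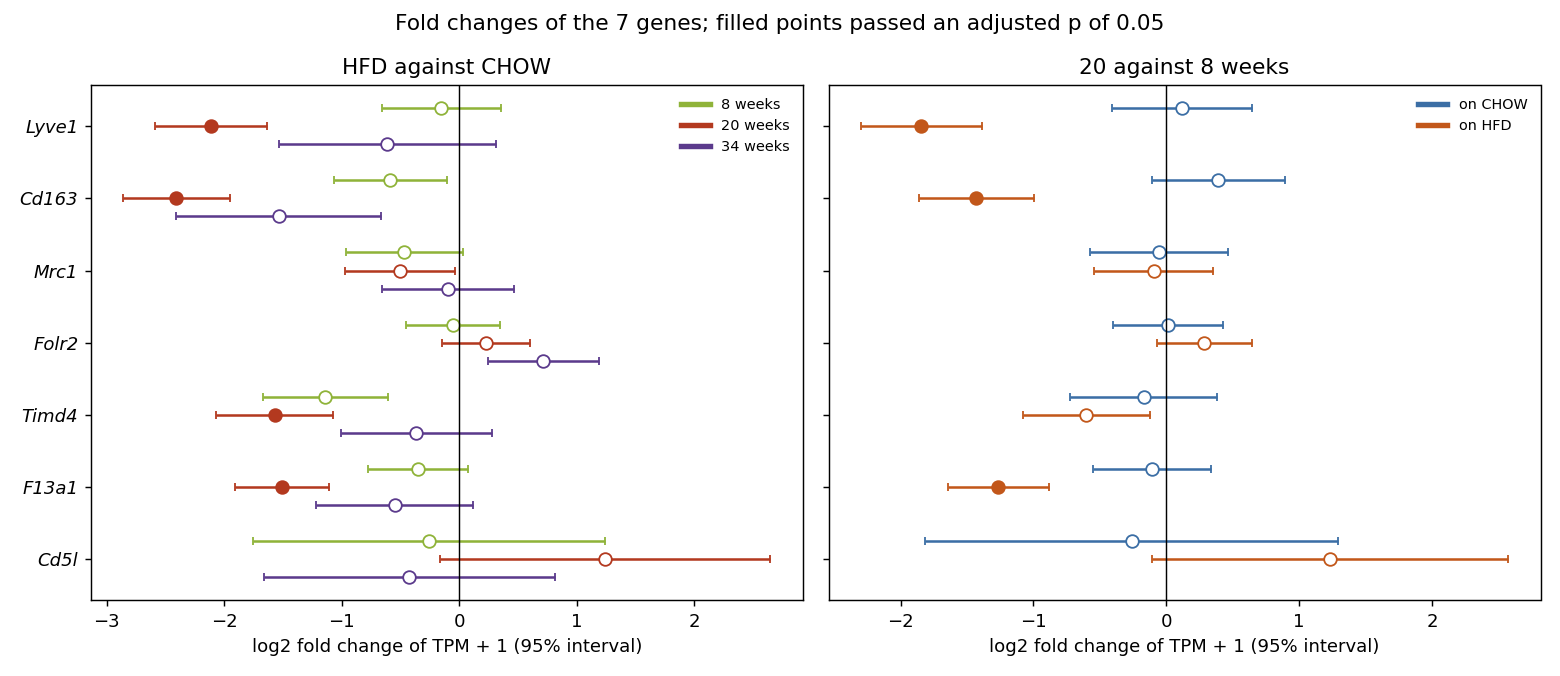
Log2 fold changes of TPM + 1 with 95% intervals for the 7 genes, on the left for HFD against CHOW at 8, 20 and 34 weeks and on the right for 20 against 8 weeks on each diet. Filled points had an adjusted p under 0.05. At 20 weeks Lyve1, Cd163, Timd4 and F13a1 are filled and lie between -2.41 and -1.51, and from 8 to 20 weeks the filled genes, Lyve1, Cd163 and F13a1, are on HFD alone.

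Longer feeding on HFD was compared next, within each diet. From 8 to 20 weeks on HFD, Lyve1 fell from 68.1 ± 5.74 to 18.5 ± 4.02 TPM, Cd163 from 110.4 ± 21.7 to 41.5 ± 14.2 TPM and F13a1 from 266 ± 43.5 to 112 ± 30.1 TPM (SD, n = 6 each), with no overlap between libraries, as in 1.29% of all genes in that direction. The log2 fold changes were -1.84 ± 0.22 for Lyve1 (adjusted p = 2.05e-05), -1.43 ± 0.21 for Cd163 (adjusted p = 0.000163) and -1.26 ± 0.18 for F13a1 (adjusted p = 0.000164). These 3 of 7 genes stood against 8.78% of all genes called and 2.65% called lower. Timd4 went from 7.31 ± 2.96 to 4.21 ± 0.98 TPM (log2 fold change -0.60 ± 0.23, adjusted p = 0.0973), and without HFD 8 week replicate 2, its lowest library of that group, it passed (-0.80, adjusted p = 0.0121), as it did after quantile normalization (adjusted p = 0.0392). With the adipocyte covariate Cd163 did not pass in this comparison (-0.99, adjusted p = 0.103). That covariate left 178 of 16808 genes called, against 1475 in the main fit. On CHOW 0 of the 7 passed in limma over the same interval, 0 had an unadjusted p under 0.05 against 12.5% of all genes, and 0.613% of all genes were called. The log2 fold changes on CHOW ran from -0.26 for Cd5l to 0.39 for Cd163. The comparison over time on HFD uses the same 6 HFD libraries of 20 weeks as the comparison of the diets, so the 2 comparisons are not independent.

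The diet by time interaction tested the change of the diet effect between 8 and 20 weeks itself. It passed for Lyve1 (difference of log2 fold changes -1.96 ± 0.33, adjusted p = 0.0155) and Cd163 (-1.82 ± 0.32, adjusted p = 0.0155). These 2 of 7 were among 0.297% of all genes called. Both were called in each of 10 other settings and in each of 21 fits without 1 library. The difference for F13a1 was -1.16 ± 0.28 (adjusted p = 0.0946). It passed with quantile normalization (adjusted p = 0.0177), median-ratio scaling (0.0120) and sample quality weights (0.0110). In these settings 104, 84 and 400 of all genes were called, against 50 in the main fit. F13a1 also passed when CHOW 20 week replicate 5 (0.0415), HFD 20 week replicate 3 (0.0480) or HFD 8 week replicate 3 (0.0472) was left out. For Timd4, whose libraries were separated at both times, the difference was -0.43 with an interval of -1.16 to 0.30 (adjusted p = 0.570). Folr2 (0.28, interval -0.27 to 0.82) and Mrc1 (-0.04, interval -0.73 to 0.65) did not pass. Cd5l had the widest interval, from -0.56 to 3.55.

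No general macrophage gene was called lower. Of 12 such genes, among them Adgre1, Csf1r, Cd68, Mertk and C1qa, 5 were higher and 0 lower on HFD at 20 weeks, with a median log2 fold change of 0.64. Cd68, a lysosomal glycoprotein, rose from 479 ± 204 to 1236 ± 276 TPM (log2 fold change 1.43), and Adgre1 (F4/80) from 146 ± 59.4 to 369 ± 98.3 TPM (1.38; SD, n = 5 and 6). All 14 lipid-associated genes were higher, led by Atp6v0d2 (a subunit of the lysosomal proton pump, 4.25) and Mmp12 (macrophage elastase, 4.07). The summed TPM of the 7 genes was 27.1 ± 5.57% of that of the 12 macrophage genes in CHOW libraries of 20 weeks and 10.2 ± 1.24% in HFD libraries. At 8 weeks it was 26.9 ± 7.57% and 22.5 ± 4.27%, and at 34 weeks 11.7 ± 4.48% and 8.68 ± 1.08%. The share ran from 18.8% to 32.2% on CHOW and from 8.62% to 12.3% on HFD at 20 weeks, with no overlap. The 2 sums behind it each overlapped between the diets. The sum of the 7 genes was 946 to 1703 TPM on CHOW and 646 to 1215 TPM on HFD. That of the 12 macrophage genes was 3610 to 7701 TPM on CHOW and 6595 to 9911 TPM on HFD.

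Set against the mean log2 level of the 12 macrophage genes, 5 of the 7 were called lower on HFD at 20 weeks. Mrc1 joined the other 4 (log2 fold change relative to the macrophage mean -1.21 ± 0.16, adjusted p = 3.83e-05), and the values of the others were -3.11 for Cd163, -2.82 for Lyve1, -2.27 for Timd4 and -2.21 for F13a1. Since the macrophage mean itself was higher on HFD, 49.2% of all genes were called on this scale and 47.4% were called lower, so a share this high among the 7 is read with that background. Folr2 did not pass (-0.47 ± 0.21, adjusted p = 0.0680) and lay above the middle value of the tested genes, which was -0.62 on this scale. It passed in 3 of 12 other settings and without CHOW 20 week replicate 2 (-0.62, adjusted p = 0.0166). That library had the highest macrophage level of its group. The fit without it called 10817 of 16808 genes, 10576 of them lower, and its middle value was -0.78. Folr2 was thus less negative than the typical gene in both fits. Cd5l did not pass (0.54 ± 0.56, adjusted p = 0.405), except with sample quality weights (0.90, adjusted p = 0.0445). At 8 weeks limma called 0 of the 7 on this scale, with 0.0178% of all genes called, and at 34 weeks 0 with 0.1% called. At each of these times 2 of the 7 had an unadjusted p under 0.05, against 3.96% of all genes at 8 and 8.02% at 34 weeks.

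The proportions of the 7 genes to each other can be read within single libraries. Folr2 stood at 3.75 to 7.02 times Lyve1 on CHOW and 4.46 to 7.09 times on HFD at 8 weeks. At 20 weeks it stood at 3.23 to 7.65 times Lyve1 on CHOW and at 15.7 to 33.1 times on HFD. The ranges at 20 weeks did not overlap, and the ratio, made of genes already tested, is a description. Folr2 over Cd163 was 1.54 to 2.11 on CHOW and 7.25 to 15.1 on HFD at 20 weeks. At 34 weeks it was 2.51 to 26.0 on CHOW and 24.3 to 56.4 on HFD. Ratios between the called genes differed in this. Cd163 over Lyve1 had medians of 2.46 on CHOW and 2.20 on HFD at 20 weeks. The HFD range of 1.57 to 2.70 lay inside the CHOW range of 1.53 to 4.96. F13a1 over Cd163 was 1.08 to 1.81 on CHOW and 2.30 to 3.87 on HFD at 20 weeks, with no overlap. F13a1 over Lyve1 was 2.65 to 6.07 on CHOW and 5.01 to 6.87 on HFD, with overlap.

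**Figure D3:**
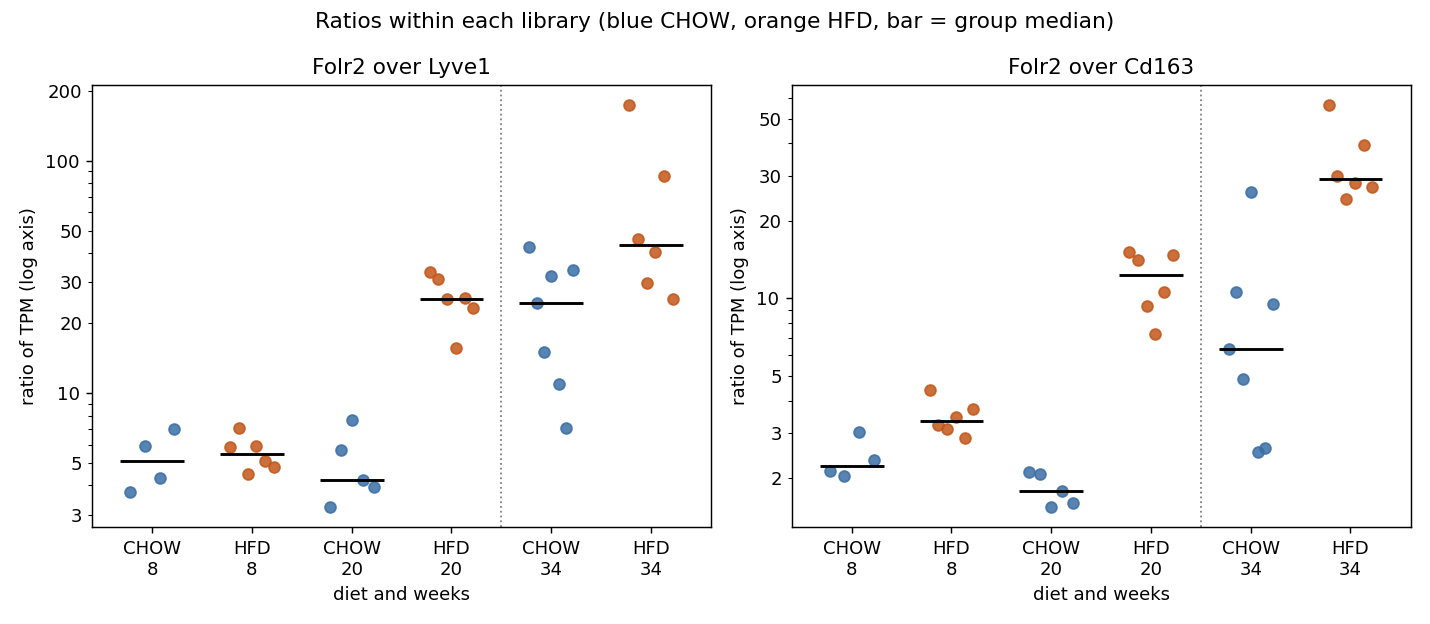
Ratio of TPM within each library (log axis) of Folr2 over Lyve1 on the left and of Folr2 over Cd163 on the right, by diet and weeks, with a bar at the group median. At 20 weeks the orange HFD points, 15.7 to 33.1 on the left, lie above all blue CHOW points, 3.23 to 7.65.

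Other genes reported in resident macrophages split in the same comparison. Of 24, a list chosen with earlier results of these data known, 11 were lower and 3 higher on HFD at 20 weeks. Of all genes 4.99% were called lower and 9.32% higher. The median log2 fold change of the 24 was -0.46. After median-ratio scaling 14 were lower and 3 higher, and after quantile normalization 13 and 3. The C-type lectins Cd209b (-2.86) and Cd209d (-2.79), which bind glycans of microbes and have close paralogs among which reads may be split, were the lowest. Cd209b fell from 76.5 ± 21.6 to 9.57 ± 2.16 TPM (SD, n = 5 and 6). Igf1 (insulin-like growth factor, 1.08) and Pltp (phospholipid transfer protein, 0.88) were higher. From 8 to 20 weeks on HFD 10 of the 24 were lower, led by Mgl2 (a galactose-binding lectin, -2.88), and 3 were higher, led by C4b (complement, 1.39). The interaction was called for 4 of 24, all lower, with Cd209d (-2.86) and Cd209b (-2.42) the lowest. At 8 and at 34 weeks limma called 0 of the 24 for diet, while 7 and 9 had an unadjusted p under 0.05, against 9.7% and 13.2% of all genes. Of 12 genes of the CSF1, IL-4 and IL-10 signals, Il10ra (1.12) was higher and Irf4 (-0.85) lower at 20 weeks, when 14.3% of all genes were called. Of 12 hyaluronan genes 11 were tested and 1 was called, Stab2, which was higher (with quantile normalization 1 was also lower).

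**Figure D4:**
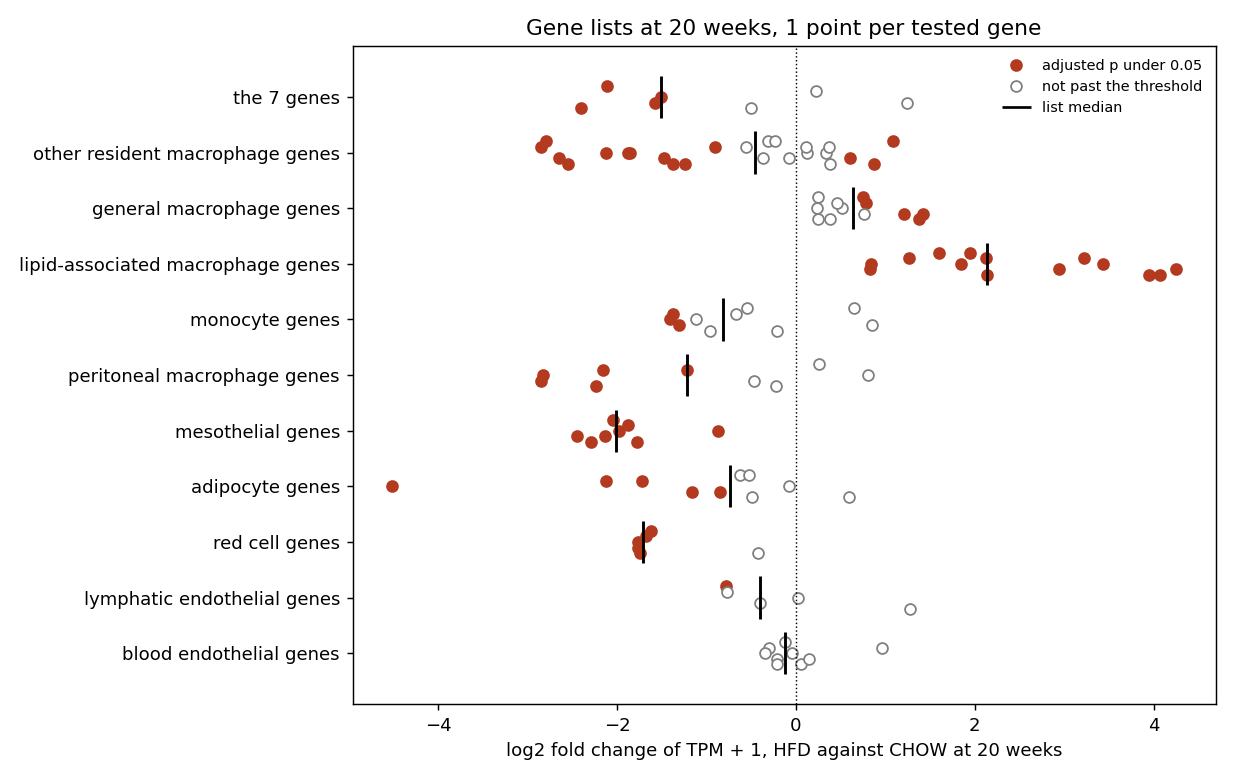
Log2 fold changes of TPM + 1 for HFD against CHOW at 20 weeks, 1 point per tested gene in 11 lists, with a bar at each list's median. Filled points had an adjusted p under 0.05. The 7 genes and the other resident macrophage genes hold points on both sides of 0, the lipid-associated genes are all to the right and the mesothelial genes all to the left.

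Markers of other cells moved at 20 weeks as well. All 8 mesothelial genes were lower on HFD (7 with median-ratio scaling), with summed levels of 239 to 852 TPM on CHOW and 71.5 to 242 TPM on HFD. Of 9 peritoneal macrophage genes tested, 5 were lower, among them Cxcl13 (-2.86) and F5 (-2.83). Gata6, of the same list, went from 21.6 ± 7.64 to 8.64 ± 3.17 TPM (log2 fold change -1.22). TIMD4 is also found on macrophages of the peritoneal cavity. Of 10 monocyte genes tested 3 were lower, among them Ly6c2 (-1.38), and of 10 adipocyte genes 5 were lower, led by Cfd (-4.52) and Retn (resistin, -2.12). The summed adipocyte level was 4860 to 8004 TPM on CHOW and 3328 to 5441 TPM on HFD. Of 6 red cell genes 5 were lower, with Hba-a1 (-1.77) and its near-identical copy Hba-a2 (-1.77) the lowest and sums of 27334 to 130029 TPM on CHOW and 12622 to 30450 TPM on HFD. Of 9 blood endothelial genes limma called 0, 1 had an unadjusted p under 0.05, and their median was -0.12. Red cell RNA was present although the SVF had been treated to lyse red cells. The part of mesothelial, peritoneal and red cell RNA in the results of the 7 genes was not tested.

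The genes whose log2 levels were most like those of each of the 7 over the 21 libraries of 8 and 20 weeks came from 10649 candidates. For Lyve1 these were Cd209b (r = 0.93), Cd209g (0.92) and Cd209f (0.92), and over the 13 libraries of 34 weeks the r was 0.75, 0.83 and 0.88. For Cd163 they were Cd209b (0.95), Fcna (ficolin A, 0.92) and Cd209d (0.90), with an r of 0.96, 0.91 and 0.92 at 34 weeks. F13a1 was most like Cbr2 (carbonyl reductase 2, 0.96), Ms4a8a (0.93) and Cd209f (0.92), with 0.74, 0.51 and 0.81 at 34 weeks. The genes were picked over the 21 libraries alone, so the values at 34 weeks belong to genes already picked.

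Mrc1 was most like Wfdc17 (0.90), Dab2 (an endocytic adaptor, 0.90) and Clec4a1 (0.90), with 0.42, 0.74 and 0.41 at 34 weeks. Folr2 was most like Myo5a (0.83), Selenop (selenoprotein P, 0.81) and Frmd4b (0.81), with 0.38, 0.39 and 0.58. Timd4 was most like Cfd (0.94), Cyp2e1 (0.92) and Gpc3 (0.91), with 0.75, 0.76 and 0.43. Cd5l was most like Vsig4 (a complement receptor of resident macrophages, 0.79), Nme4 (0.78) and Faim (0.77), with -0.18, 0.22 and 0.59. These r values share the libraries and the group differences, and are a description.

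Correlations between the 7 genes were also computed with group means removed. In the 21 libraries of 8 and 20 weeks Folr2 and F13a1 had an r of 0.81 within groups, against -0.03 with group differences left in. Mrc1 followed F13a1 (0.77), Folr2 (0.66) and the macrophage mean (0.82) within groups. Timd4 ran against the macrophage mean (-0.55). In the 13 libraries of 34 weeks Cd163 and F13a1 (0.78), Lyve1 and F13a1 (0.77), Cd163 and Timd4 (0.76), Mrc1 and Folr2 (0.75) and Lyve1 and Cd163 (0.72) went together. Lyve1 and Cd5l went apart (-0.80), and HFD replicate 1 held the lowest Lyve1 and the highest Cd5l of these libraries. The r of Folr2 and F13a1 was 0.41 there. Some signs differed at 8 and 20 weeks, with -0.21 for Cd163 and Timd4 and 0.28 for Lyve1 and Cd5l. Others held, with 0.65 for Cd163 and F13a1, 0.61 for Lyve1 and F13a1 and 0.41 for Lyve1 and Cd163.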

How the data were processed

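RNA-seq values of 34 SVF libraries were used as deposited. The authors trimmed reads with Trimmomatic, quantified them with Salmon (gencode M10 transcripts, mm10 in the submitters' notes) and deposited gene-level TPM, with the 21 libraries of 8 and 20 weeks in 1 table and the 13 of 34 weeks in another. Software versions are not stated here. Each library sums to 1000000 TPM, so the depth is unknown and values are shares of 1 total. The authors' DESeq2 test needs counts and was not run here.

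TPM was transformed to log2(TPM + 1), which understates changes of low genes. Genes at 1 TPM in at least 4 libraries (8 and 20 weeks) or 6 (34 weeks) were tested with limma 3.58.1 in R 4.3.3 (group means, contrasts, eBayes with trend, two-sided, Benjamini-Hochberg). The 2 tables were made apart, so each was fitted alone with no test across them. Positions are from gencode M21 (GRCm38). The method was tested on simulated data. The 7 genes and the 22 gene lists were chosen with earlier results of these data known, and all 247 listed genes were found. Named beside the 7 were up to 2 called genes per list and direction, the 3 genes most like each member, and markers standing beside a result. The alternatives were another pseudocount, other filters, scalings and weights, a covariate, a replicate block and left-out libraries. Some items that were measured are not reported here.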

Additional observations from a re-analysis of the deposited data

Results flagged for a closer look

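Each gene in each group (42 sets of 4 to 7 libraries) was examined for a library far from the rest by Dixon's ratio of its gap to the range. Chance alone flags about 5% of such sets, and 3 were found. Cd5l was at 49.1 TPM in CHOW 8 week replicate 3, the highest of 4 libraries, of which the others did not exceed 3.88 TPM. That library also had the lowest blood endothelial sum of its group, 344 TPM. Cd5l was at 132 TPM in HFD 34 week replicate 1, the highest of 6, with the next at 33.7 TPM, and Lyve1 was at its lowest of all 34 libraries, 2.92 TPM, in the same library. It also held 5279 TPM of germ cell genes. F13a1 was at 168 TPM in HFD 20 week replicate 3, the highest of 6, which was still below all CHOW libraries of 20 weeks.

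The HFD effect differed between 8 and 20 weeks by the interaction test in limma for Lyve1 (difference in log2 fold change -1.96, adjusted p = 0.0155) and Cd163 (-1.82, adjusted p = 0.0155).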

How the results depend on the processing

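The 4 genes called lower at 20 weeks kept their direction in 11 alternatives and in 11 fits without 1 library, and the same holds for their calls, except Timd4 with the adipocyte covariate. Lyve1, Cd163 and F13a1 kept theirs from 8 to 20 weeks on HFD, except Cd163 with that covariate. The count of called genes among the 7 moved at 8 weeks, from 0 to 1 (Timd4) with sample quality weights and with the replicate block. In these settings 209 and 17 of all 16808 genes were called at 8 weeks, against 4 in the main fit. The weights also gave 5092 calls over all genes at 20 weeks, against 2405. At 34 weeks the count among the 7 moved to 1 (Cd163) with sample quality weights. Relative to the macrophage mean it moved to 3 of 7 at 20 weeks with the adipocyte covariate (Lyve1, Cd163 and F13a1), where Mrc1 (adjusted p = 0.103) and Timd4 (0.586) did not pass, and to 2 at 34 weeks with sample quality weights. The cause was not tested. Over all genes, the adipocyte covariate left 41 calls relative to the macrophage mean at 20 weeks, against 8267 without it. In the plain comparison of the diets it left 26 calls at 20 weeks, against 2405 without it. The split of those 2405 was 1566 higher and 839 lower, against 1648 and 1854 with quantile normalization and 2060 and 1553 with median-ratio scaling. Quantile normalization moved the median interaction of all genes from 0.18 to -0.02.

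Signs turned for differences that had not passed. For Folr2 at 8 weeks the log2 fold change was 0.059 with median-ratio scaling, 0.074 with quantile normalization, 0.039 with the replicate block and 0.018 without the libraries that stood apart. For Cd5l it was 0.52 at 8 weeks with sample quality weights and 0.028 with the block, and with the adipocyte covariate -0.63 at 20 weeks, -0.31 over time on HFD and -0.58 relative to the macrophage mean. That covariate also gave 0.20 for Folr2 relative to the macrophage mean, 0.010 for Timd4 over time on HFD and 0.20 for Timd4 at 34 weeks, where leaving out the libraries that stood apart gave 0.0097. Over time on CHOW, sample quality weights gave -0.0033 for Lyve1, -0.088 for Folr2 and 0.19 for Cd5l, and median-ratio scaling 0.045 and the block 0.034 for Mrc1. Folr2 was at -0.086 with quantile normalization, -0.038 with the covariate and -0.011 without the libraries that stood apart, and Timd4 at 0.30 with the covariate. Over time on HFD, quantile normalization gave -0.023 for Folr2. The interaction of Mrc1 was 0.12 without the libraries that stood apart.

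Leaving out 1 library at a time, the log2 fold change ran from -0.30 to 0.026 for Lyve1, -0.18 to 0.11 for Folr2 and -0.74 to 0.68 for Cd5l at 8 weeks. Over time on CHOW it ran from -0.12 to 0.33 for Lyve1, -0.22 to 0.072 for Mrc1, -0.12 to 0.18 for Folr2, -0.23 to 0.055 for F13a1 and -0.75 to 0.67 for Cd5l. For Mrc1 it ran from -0.24 to 0.020 over time on HFD, -0.19 to 0.13 in the interaction and -0.22 to 0.029 at 34 weeks.

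Replicate numbers were not taken to pair the libraries, since in no comparison did every same-numbered pair deviate together at an r over 0.1. The r ran from -0.10 to 0.15 in 5 pairs at 20 weeks, 0.03 to 0.21 in 4 pairs at 8 weeks and -0.01 to 0.21 in 6 pairs at 34 weeks. It ran from -0.09 to 0.03 in 4 pairs over time on CHOW and 0.05 to 0.40 in 6 pairs over time on HFD, where 4 of 6 exceeded 0.1. The libraries that correlated best with their own number were 8 of 12 over time on HFD and 7 of 12 at 34 weeks. They were 2 of 10 at 20 weeks, 2 of 8 at 8 weeks and 1 of 8 over time on CHOW. With the number as a block, Timd4 passed at 8 weeks (-1.29, adjusted p = 0.0323) and over time on HFD (-0.60, adjusted p = 0.0444). The other calls of the 7 did not change with the block. A filter at 5 TPM gave no value for Timd4 at 34 weeks, and for 34 weeks and the interaction a fit of only the groups compared is the same fit. TPM keeps no depth, so no counting error could be given.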
